A study of Mus musculus with 2 samples.

Results

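The 10 genes described here encode proteins that make small-molecule transmitters, load them into vesicles or take them up. The transmitters are others than acetylcholine and the catecholamines. Gad1, Gad2 and Slc32a1 serve GABA, Slc17a6, Slc17a7 and Slc17a8 glutamate, Slc6a5 glycine, Tph1 and Tph2 serotonin, and Hdc histamine. The 10 were taken by name and not by a measured value, although with earlier results of these data known. All were found among 21911 protein-coding gene symbols of GENCODE mouse release M21. DNase-seq, which maps stretches of chromatin that the nuclease DNase I cuts readily, had been run on MN1, an immortalized mouse line of strain B6NCrl. The labels give no tissue, and the sex, age and developmental stage are not known. MN1 is known as a line with features of motor neurons. Both libraries, biological replicates 1 and 2 of a single group, came from cells given 10 nM methyltrienolone, a synthetic androgen, so every value is a level in treated cells and none is a response. With 1 group of 2 libraries no test between conditions could be made.

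Glutamate decarboxylases make GABA from glutamate, tryptophan hydroxylases carry out the limiting step of serotonin synthesis, and histidine decarboxylase makes histamine. The vesicular carriers encoded by Slc32a1 and the Slc17a genes pump a transmitter into synaptic vesicles, and the Slc6a5 product takes glycine back up into glycinergic terminals. Such genes are used to name classes of neurons because most neurons switch on the set of 1 transmitter and leave the others silent. Spinal motor neurons are known as cholinergic cells.

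Replicate 1 held 189648 peaks and replicate 2 held 170745, with median scores of 53 and 51 on a scale that ran from 1 to 150 in both. The score is the authors' own value for each peak, what it measures is not stated in the sources used, and it served only to describe and rank peaks within a list. Peaks of both replicates that overlapped were merged into 127807 shared regions, and a gene's promoter counted as open if a shared region lay within 1 kb of any annotated transcription start site (TSS) of the gene. All 7 neuron markers looked at had an open promoter, as did 5 of 7 motor neuron markers (Slc5a7 and Mnx1 had none) and 1 of 5 glial markers (Gfap), where 59.5% of all protein-coding genes did. The number of reads behind the lists is not known, so a missing peak does not show closed chromatin.

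Open promoters were found at 5 of the 10 transmitter genes, Gad1, Slc17a7, Tph1, Tph2 and Hdc. Of all protein-coding genes, 59.5% were open by the same rule. Gad2, Slc32a1, Slc17a6, Slc17a8 and Slc6a5 had no peak within 1 kb of any of their starts in either replicate. Each replicate alone gave the same 5 genes, where 61.9% of all genes had a promoter peak in replicate 1 and 60.8% in replicate 2. Hotspots, the wider stretches of raised cutting that were deposited beside the peaks, also lay at these 5 promoters in both replicates, against 59.9% of all genes. At the gene's own most upstream start, 3 of the 10 were open (Slc17a7, Tph1 and Tph2), against 55.0% of all genes. In both counts the share of the transmitter genes lay below that of all genes, and with 10 genes that difference was not tested.

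**Figure D1:**
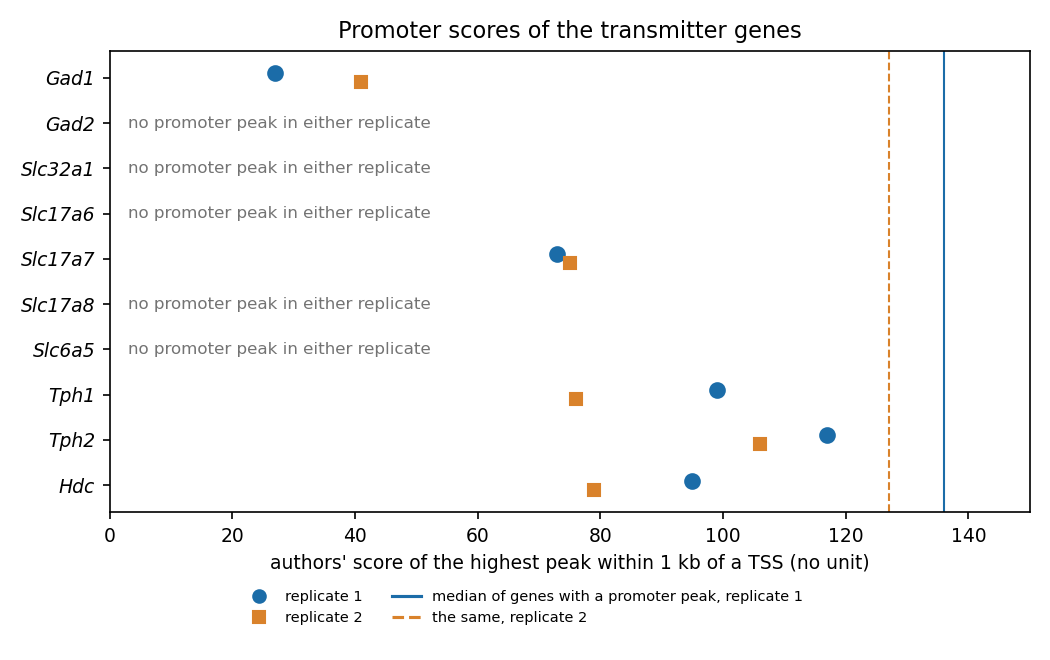
Each row is a transmitter gene, and the horizontal axis is the authors' score of its highest peak within 1 kb of any TSS, with no unit. Circles are replicate 1 and squares replicate 2. The solid and dashed lines are the medians over all genes with a promoter peak in replicate 1 (136) and replicate 2 (127). All 5 genes with a peak lie below both lines, and 5 genes have none.

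Where these promoters were open, their scores were low for a promoter. The median over the 5 open genes was 95 in replicate 1 and 76 in replicate 2, while the median over all genes with a promoter peak was 136 and 127. The highest of the 5, Tph2, stood at percentile 27.3 of such genes in replicate 1 and 25.8 in replicate 2. The lowest, Gad1, stood at percentile 2.44 and 5.06. The plot of promoter scores shows that none of the 5 reached the median of genes with a promoter peak in either replicate.

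Promoters rich in CpG dinucleotides are open in most cell types, so the base composition was read beside the calls. A start was called CpG-rich where the observed over expected CpG count in the 500 bp on either side was at least 0.6. Of all genes with a CpG-rich 5′ end 87.6% were open, but none of the 3 transmitter genes of that kind was. These were Slc32a1 (0.760), Gad2 (0.635) and Slc17a6 (0.608, just inside the threshold). Of all genes with a CpG-poor 5′ end 35.6% were open, and 5 of the 7 transmitter genes of that kind were. Read at the same 5′ end at which the CpG content was taken, 3 of these 7 were open (Slc17a7, Tph1 and Tph2), against 28.7% of all CpG-poor genes, and none of the 3 CpG-rich ones, against 85.9%. Hdc and Gad1 were open at other starts only. Just outside the threshold were Slc6a5 (0.535), without a peak, and Slc17a7 (0.522), with one. Gad1 counts as CpG-poor through its far upstream start (0.249), while the start of its first-numbered transcript, Gad1-201, had 0.678. The 5 open CpG-poor genes had medians of 95 and 76, below the 115 and 106 of all open CpG-poor genes.

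**Figure D2:**
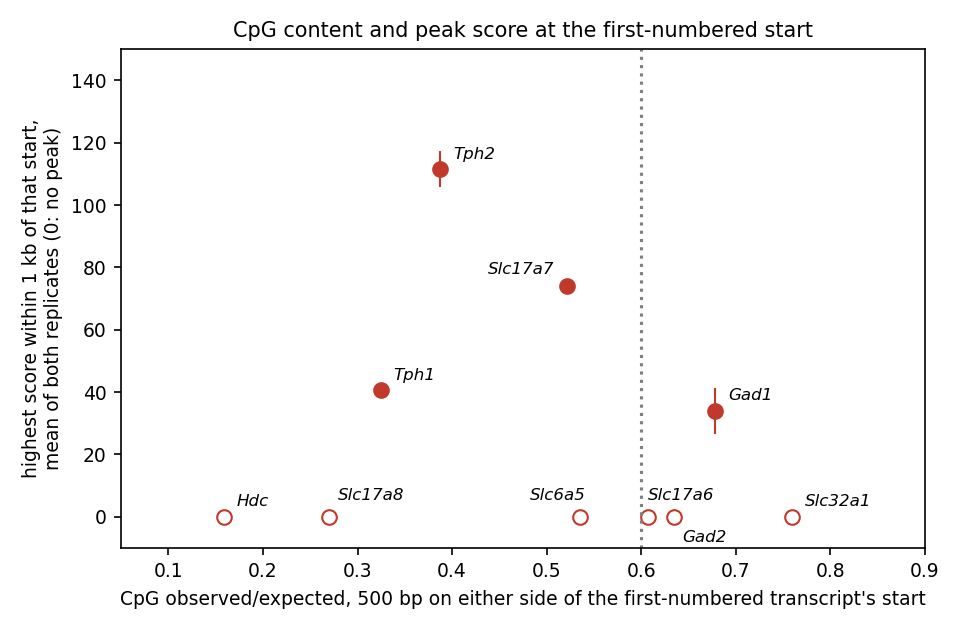
The horizontal axis is the observed over expected CpG count around the start of each gene's first-numbered transcript, and the vertical axis is the highest score within 1 kb of that same start, as the mean of both replicates. Vertical bars join both replicates, open circles at 0 are genes without a peak there, and the dotted line is the threshold of 0.6. Tph2 and Slc17a7 are the 2 highest and lie left of the line, while 3 of the 4 starts to the right of it have no peak.

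The sequences just upstream of 2 starts are shown as an example without a peak and one with. They are the 250 bases before the start in RefSeq (GRCm38.p6), with each CpG in capitals. The Slc32a1 stretch, chr2:158610508-158610757 on the plus strand, holds 12 CpGs (ratio 0.497) and no peak lay there. The Slc17a7 stretch, chr7:45163671-45163920 on the plus strand, holds 9 CpGs (ratio 0.408), and a shared region overlapped its end. Over these shorter stretches both ratios lie below 0.6, so the difference in CpG ratio between these genes is that of the wider window around the start.
Slc32a1: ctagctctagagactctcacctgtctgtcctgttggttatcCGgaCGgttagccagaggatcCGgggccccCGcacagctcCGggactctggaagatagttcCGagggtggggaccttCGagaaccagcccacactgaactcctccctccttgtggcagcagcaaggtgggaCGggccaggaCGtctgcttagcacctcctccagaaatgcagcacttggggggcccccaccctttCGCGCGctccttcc
Slc17a7: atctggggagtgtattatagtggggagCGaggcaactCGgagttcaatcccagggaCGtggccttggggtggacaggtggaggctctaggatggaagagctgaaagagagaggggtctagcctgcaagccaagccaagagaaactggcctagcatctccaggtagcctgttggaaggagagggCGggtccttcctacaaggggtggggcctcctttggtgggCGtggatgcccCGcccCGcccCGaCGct

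Of the 2 tryptophan hydroxylase genes, Tph2, the form found in neurons, had the higher promoter scores. The region over its start, chr10:115184856-115185025 (mm10, in the first exon, centred 81 bp downstream of the start), scored 117 in replicate 1 and 106 in replicate 2, a mean of 111.5 ± 7.78 (SD, n = 2). A weaker region, with scores of 88 and 75, lay at the internal start of the processed transcript Tph2-202, 9151 bp downstream. Both Tph2 starts were CpG-poor, with ratios of 0.388 and 0.361.

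The sequence before the Tph2 start is shown because it holds TATAAA, the letters of a TATA box, given in capitals, whose first base lies 30 bases upstream of the start. On the strand of the gene, TATAAA was found in 7.38% of 20150 RefSeq promoters over the same 250 bases, and in 1 of the 14 RefSeq promoters of the transmitter genes. On either strand it was found in 11.2% of all promoters and in 2 of these 14, the other being that of Gad1. The stretch is chr10:115185023-115185272 on the minus strand, and the open region began at its downstream end.
Tph2: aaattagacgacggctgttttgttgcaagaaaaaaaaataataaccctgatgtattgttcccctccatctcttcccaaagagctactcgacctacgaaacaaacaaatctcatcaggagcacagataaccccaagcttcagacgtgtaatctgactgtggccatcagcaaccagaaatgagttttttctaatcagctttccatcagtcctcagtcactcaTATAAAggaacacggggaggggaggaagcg

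The open region at the Tph2 start also holds both half-sites of RE1, the element bound by REST, a repressor of neuronal genes in other cells. The half-sites TTCAGCACC and GGACAGCGC stand without a mismatch, 8 bases apart, at chr10:115184989-115185014 on the minus strand, in the first exon. They are given in capitals.
Tph2 split RE1: TTCAGCACCagggttctGGACAGCGC

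In the usual RE1 the half-sites are 2 bases apart, and no region at the transmitter genes held that form with up to 3 mismatches (0 of 126, against 0.0681% of all shared regions). The wider search, with gaps of 3 to 20 bases and no mismatch, was added after this sequence had been seen. It matched 5 of the 127807 shared regions (0.00391%), of which the Tph2 start was the only one at the 10 genes. A match describes the letters only, and whether REST binds there was not measured.

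Inside Tph2, the longest of the 10 genes at 106382 bp, 9 further shared regions were found, all in introns and the most of any of the 10. The strongest were 84781 bp and 13371 bp downstream of the start, with scores of 137 and 119 for the first and 136 and 127 for the second. Both exceeded the scores at the Tph2 start itself in both replicates. The first, chr10:115100036-115100445, was 410 bp wide, and the second, chr10:115171576-115171725, had a companion 13721 bp downstream of the start with scores of 105 and 77. Upstream, 2 distal regions lay 4759 bp (scores 80 and 88) and 8009 bp (49 and 39) from the start. In replicate 1, 19 of 33 peaks at Tph2 and within 50 kb of it had no partner in replicate 2, and in replicate 2, 4 of 18 had none in replicate 1. The unpaired peaks of replicate 1 were weak, with a median score of 32, against 85 for the paired ones.

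The sequences of the strongest intronic regions of Tph2, Gad2 and Slc6a5 are shown because they outscored anything at the start of their gene in both replicates. At Gad2 and Slc6a5 there was no peak at any start to compare with. Gad1 also had an intronic region (69 and 76) above its promoter region (27 and 41), which is not shown. Hdc, whose regions are described with that gene, also had its highest scores away from its coding start. The sequences shown are the 150 bases around each centre, in the direction of the gene, at chr10:115171576-115171725 (minus strand), chr2:22670616-22670765 (plus strand) and chr7:49923456-49923605 (plus strand). None of the 8 motifs searched was found in them, so no letters are in capitals.
Tph2 intron: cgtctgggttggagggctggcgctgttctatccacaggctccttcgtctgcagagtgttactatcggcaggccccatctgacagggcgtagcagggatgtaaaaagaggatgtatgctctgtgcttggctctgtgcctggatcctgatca
Gad2 intron: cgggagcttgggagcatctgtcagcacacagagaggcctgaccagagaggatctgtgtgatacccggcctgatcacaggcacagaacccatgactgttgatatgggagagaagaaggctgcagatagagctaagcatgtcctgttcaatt
Slc6a5 intron: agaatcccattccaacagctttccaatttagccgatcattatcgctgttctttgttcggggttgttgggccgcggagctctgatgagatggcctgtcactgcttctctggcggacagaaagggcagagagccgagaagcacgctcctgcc

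Tph1, the form of the enzyme known from gut and pineal gland, was open at several of its 8 annotated start positions. The region with the highest score, chr7:46667436-46667585, lay 5026 bp downstream of the first start, beside the starts of the coding transcripts Tph1-202 and Tph1-205. It scored 99 in replicate 1 and 76 in replicate 2 (mean 87.5 ± 16.3 SD, n = 2). The first start itself had weaker regions, 116 bp downstream with scores of 42 and 39 and 636 bp downstream with 30 and 26. Another 2 regions at internal starts scored 33 and 25, and 38 and 37. Read at the most upstream start alone, the mean score of Tph1 was 40.5.

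Both Tph1 starts are in RefSeq, and their upstream sequences differ in CpG content, which is why they are shown with CpGs in capitals. The 250 bases before the first start, chr7:46672538-46672787 (minus strand), hold 5 CpGs, a ratio of 0.431. Those before the second, chr7:46667378-46667627 (minus strand), hold 19, a ratio of 0.920, and contain the whole of the strongest region. With 500 bp on either side, the ratio was 0.325 at the first start. It was 0.461 at the start of Tph1-202 and 0.469 at that of Tph1-205. By that wider window all of these starts were CpG-poor, below 0.6.
Tph1 first start: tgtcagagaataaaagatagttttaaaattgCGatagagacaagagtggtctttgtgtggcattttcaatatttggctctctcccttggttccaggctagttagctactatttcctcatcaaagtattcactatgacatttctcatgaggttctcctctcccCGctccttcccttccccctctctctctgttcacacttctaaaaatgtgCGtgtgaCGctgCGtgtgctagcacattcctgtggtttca
Tph1 second start: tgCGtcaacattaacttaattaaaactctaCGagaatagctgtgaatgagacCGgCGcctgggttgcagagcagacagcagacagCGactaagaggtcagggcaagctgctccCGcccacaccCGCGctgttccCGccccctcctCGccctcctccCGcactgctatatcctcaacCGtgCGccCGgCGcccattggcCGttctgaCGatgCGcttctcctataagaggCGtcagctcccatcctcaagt

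Hdc was open at a place other than its coding start. No peak lay within 1 kb of Hdc-201, the coding transcript, nor of Hdc-203, Hdc-204 or Hdc-205. All 4 promoter regions lay around the start of the processed transcript Hdc-202, 20417 bp downstream of the coding start. Their scores were 75 and 60, 95 and 75, 44 and 44, and 66 and 79 in replicates 1 and 2, and the highest of each replicate were 95 and 79 (mean 87 ± 11.3 SD, n = 2). Another 2 regions, with scores of 79 and 66 and of 82 and 63, lay in exonic sequence 24677 and 24247 bp from the coding start. Hotspots covered 11.5% of the Hdc gene in replicate 1 and 11.0% in replicate 2, the highest shares among the 10 genes, with a widest hotspot of 1690 and 1658 bp.

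The sequence before the Hdc coding start is shown because it holds a near match to the androgen response element (ARE), in capitals, although no peak lay there. The ARE was searched as the half-sites AGAACA and TGTTCT with 3 bases between and at most 2 mismatches, on both strands. The match, at chr2:126618810-126618824, has 1 mismatch, and 1.30% of RefSeq promoters hold a match. The stretch is chr2:126618679-126618928 on the minus strand.
Hdc: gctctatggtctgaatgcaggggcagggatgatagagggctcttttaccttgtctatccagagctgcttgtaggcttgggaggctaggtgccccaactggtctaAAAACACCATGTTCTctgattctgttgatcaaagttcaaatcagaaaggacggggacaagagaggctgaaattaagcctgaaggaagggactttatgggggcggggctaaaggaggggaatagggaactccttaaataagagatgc

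Of the GABA genes, Gad1, the decarboxylase of cell bodies and terminals, was open only weakly. Its promoter region, chr2:70561116-70561285, scored 27 in replicate 1 and 41 in replicate 2 (mean 34 ± 9.90 SD, n = 2). It lay 841 bp upstream of the Gad1-201 start, in an intron of the longer transcript Gad1-204 and within the antisense gene Gad1os. It was just inside the 1 kb window. With a window of 500 bp Gad1 was no longer open. The Gad1-204 start, 8970 bp upstream, had no peak. A stronger region, with scores of 69 and 76, lay 3721 bp upstream of Gad1-201, and a weak one (30 and 24) lay 30549 bp downstream. The highest region in the neighbourhood, 133 and 104, lay 67569 bp downstream, beyond the end of the gene and nearest to the start of Gm16510.

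Gad2, the decarboxylase enriched in terminals, had no promoter peak but 5 shared regions in its introns. The strongest, chr2:22670596-22670785, lay 48486 bp downstream of the start with scores of 145 in replicate 1 and 114 in replicate 2. It had companions at 49036 bp (62 and 56) and 49386 bp (50 and 32), and the widest hotspot in the gene measured 1766 and 1657 bp. The remaining regions, at 5296 and 29916 bp, scored 61 and 33, and 47 and 34. The bases directly before the Gad2 start hold an RE1 with the usual gap of 2 and 3 mismatches, in capitals, at chr2:22622161-22622180. A match of this kind was found in 0.139% of RefSeq promoters. The 128 bases shown are chr2:22622077-22622204, plus strand.
Gad2: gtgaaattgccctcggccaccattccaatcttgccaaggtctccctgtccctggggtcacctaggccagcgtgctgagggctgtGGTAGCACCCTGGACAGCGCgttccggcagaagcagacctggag

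Upstream of Gad2, 6 regions lay between 32784 and 34734 bp from its start, on the pseudogenes Gm13341 and Gm13340. Between 19.3% and 56.2% of the 32-base sequences in these 6 regions also occur in the mitochondrial genome, against none in the other 120 regions at the transmitter genes. Gad2 and the 50 kb on either side held 16 shared regions. Leaving out the 2 regions in which at least 50% of the sequences matched gave 14, and leaving out all 6 with any match gave 10. Both cuts were chosen after the data were seen, the second once the first had been found to catch only 2 of the 6. The part of mitochondrial reads in these peaks was not tested.

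Slc32a1, the vesicular carrier of GABA and glycine, had no peak or hotspot in its 4982 bp in either replicate. Around it, 11 distal regions, more than 2.5 kb from any TSS, lay within 50 kb, the highest number among the 10 genes and percentile 90.5 of all protein-coding genes. The strongest of these scored 127 and 112 and lay 15446 bp upstream. The promoter of the neighbouring gene Actr5 scored 140 and 130 at 14114 bp downstream, and no shared region lay nearer to the Slc32a1 start.

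Slc17a7, the first of the vesicular glutamate carriers, was the only one of the 3 with an open promoter. The region over its start, chr7:45163836-45164005, scored 73 and 75 (mean 74 ± 1.41 SD, n = 2). A stronger region, chr7:45162076-45162265, lay 1778 bp upstream, outside the 1 kb window, with scores of 133 and 127. With a window of 2.5 kb the mean promoter score of Slc17a7 became 130. Of 27 shared regions in its neighbourhood, 16 lay at promoters of other genes. Among these genes were Rpl13a, which encodes a ribosomal protein, and Flt3l, Aldh16a1, Pih1d1, Pth2 and Tead2. The 1 body region of Slc17a7, 31 and 32, lay within 1 kb of the start of Mir7055.

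Slc17a6 and Slc17a8, the other two vesicular glutamate carriers, had no peak in the gene in either replicate. Slc17a6 was the emptiest of the 10: the gene and the 50 kb on either side held no shared region, as was the case for 15.9% of protein-coding genes. A single peak of replicate 2, with a score of 27, was found there and none of replicate 1. Around Slc17a8 lay 10 shared regions, of which 3 were at the promoter of the neighbour Nr1h4. The nearest lay 9028 bp upstream of the Slc17a8 start, with scores of 80 and 82.

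Slc6a5, the glycine transporter of glycinergic neurons, had no promoter peak and 2 intronic regions. The stronger, chr7:49923436-49923625, lay 13385 bp downstream of the start and scored 103 in replicate 1 and 122 in replicate 2, while the other scored 29 and 41. The widest hotspot in the gene measured 1036 and 1103 bp. A replicate 1 peak with a score of 102 at this gene had no partner in replicate 2, the highest such score among the 10 genes. Another 7 distal regions lay upstream, the highest with scores of 86 and 69.

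**Figure D3:**
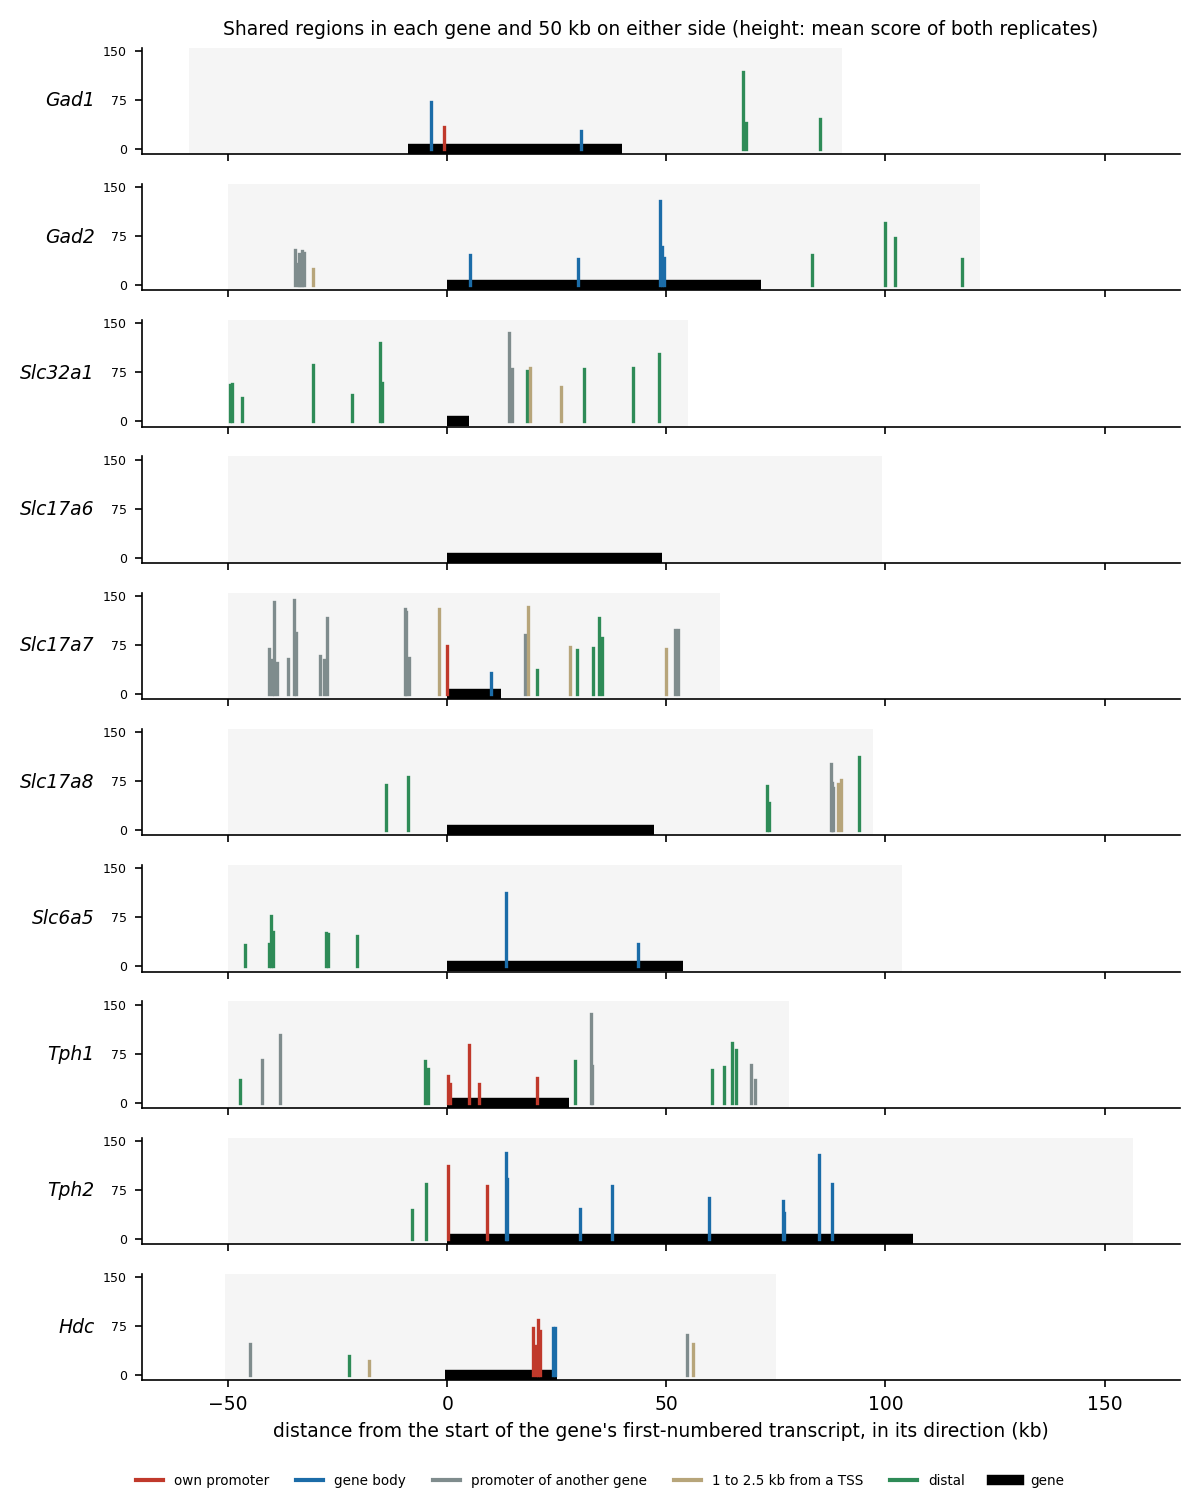
Each panel is a transmitter gene (black bar) with the 50 kb on either side (grey), and the horizontal axis is the distance in kb from the start of the first-numbered transcript, in the direction of the gene. Each vertical line is a shared region, its height is the mean of both replicates' scores, and its colour gives its position. Tph2, Gad2, Slc6a5 and Hdc have their highest lines inside the gene, and Slc17a6 has none.

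Over the gene bodies outside promoters, 6 of the 10 genes had a shared region (Gad1, Gad2, Slc17a7, Slc6a5, Tph2 and Hdc), against 48.6% of all protein-coding genes. The transmitter genes are long, with a median of 48088.5 bp against 17433 bp, and longer genes hold more regions. Of the 7 that lie within 0.5 to 2 times their median length, 4 had a body region, against 72.9% of all genes of such length. The share among genes of like length was thus below the background, and above it when length was set aside.

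The 126 shared regions at the 10 genes and within 50 kb of them fell into 13 at the gene's own promoters, 21 in its body, 35 at promoters of other genes, 11 between 1 and 2.5 kb of a TSS, and 46 distal. The median number of distal regions per gene was 4.5, against 3 over all protein-coding genes. The median number of all regions was 12 in both. Per 100 kb the medians were 7.77 and 8.80. The totals ran from 0 at Slc17a6 to 27 at Slc17a7. These counts and medians include the 6 regions at Gad2 that share sequence with the mitochondrial genome, all counted at promoters of other genes. Without them Gad2 held 10 regions in place of 16, and the medians were not computed again.

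**Figure D4:**
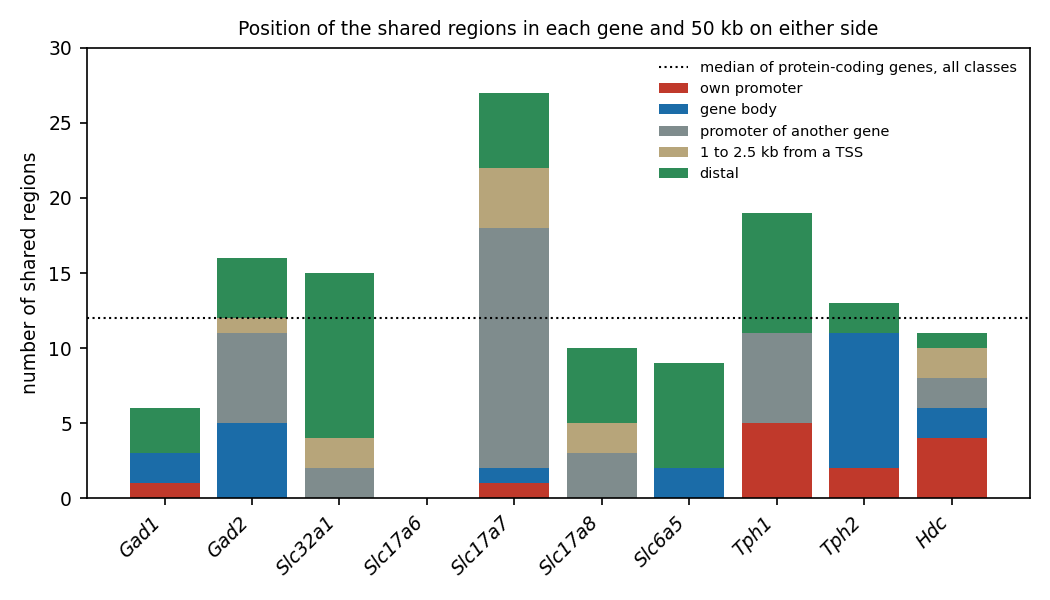
Bars give the number of shared regions in each gene and 50 kb on either side, split by position, and the dotted line is the median of all protein-coding genes (12). Slc17a7 has 27, of which 16 lie at promoters of other genes, and the 9 body regions of Tph2, the longest gene, are the most in any of the genes.

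Motif matches at these regions were counted beside those at all shared regions. Within 150 bp around their centres, 3 of 126 regions (2.38%) held an ARE, against 2.75% of all shared regions. AP-1 (TGACTCA) was in 10 (7.94% against 11.6%) and NFI (TTGGC and GCCAA with 5 bases between, at most 1 mismatch) in 5 (3.97% against 2.65%). TAATTA, a homeodomain core, was in 7 (5.56% against 4.17%), and CAGCTG, an E-box, in 13 (10.3% against 13.9%). The motif of GATA factors, AGATAA, was in 6 (4.76% against 7.69%), and TGACGTCA, the cyclic AMP response element, in 1 (0.794% against 0.728%). All were searched on both strands, and no test was made.

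The 3 ARE matches are shown because the cells had been given an androgen. Each has 2 mismatches and lies in a distal region, at chr10:89635270-89635284 near Slc17a8, chr10:115189787-115189801 near Tph2 and chr2:126641111-126641125 near Hdc. They are written on the plus strand with the whole match in capitals.
Slc17a8 ARE: AGAGCATCCAGTTCT
Tph2 ARE: GGAACACATTGTCCT
Hdc ARE: AGAACTGAATGTTCC

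The Tph2 match lies in the region 4759 bp upstream of its start, with scores of 80 and 88. The region near Slc17a8 scored 75 and 64, and that near Hdc 20 and 39.

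Genes that supply, take up or break down the same transmitters were open at 21 of 34 promoters (61.8%), close to the 59.5% of all protein-coding genes. For GABA, 3 of 6 were open: Abat, which breaks GABA down (142 and 139), Slc6a12 (93 and 53) and Aldh5a1 (44 and 30), while Slc6a11 and Slc6a13, which encode GABA transporters, had no peak. For glutamate, 6 of 10 were open, with Gls2 (148 and 146), Glul (149 and 143) and Glud1 (146 and 141) highest. The glutamate transporters Slc1a1, Slc1a3 and Slc1a6 had no peak, and Slc1a2 had one in replicate 2 alone.

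For glycine, 6 of 7 were open, with the glycine cleavage genes Dld (144 and 143) and Gcsh (150 and 141) and Shmt1 (140 and 131) highest, and Amt without a peak. For serotonin, 6 of 9 were open, with Pts (145 and 140), Qdpr (147 and 135) and Spr (135 and 131), which make or recycle the cofactor of tryptophan hydroxylase, highest. The serotonin transporter gene Slc6a4 was open too. The vesicular monoamine carrier gene Slc18a2 had no peak, and Ddc, which encodes the enzyme after tryptophan hydroxylase, had one in replicate 2 alone. Neither gene of histamine breakdown, Hnmt or Aoc1, had a peak.

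Transcription factors listed for these fates, by an assignment that was not tested here, were open at 13 of 25 promoters (52.0%). Of all protein-coding genes, 59.5% were open. For GABA and glycine 8 of 14 were open, with Gata2 (144 and 137), Dlx1 (142 and 129) and Lhx1 (112 and 91) highest, and Ptf1a and Pax2 without a peak. For glutamate 3 of 8 were open, Tlx3 (94 and 101), Neurog2 (54 and 44) and Barhl1 (43 and 30). For serotonin 4 of 6 were open, among them Fev, Insm1 (91 and 80) and Gata3 (87 and 68), and Lmx1b and Nkx2-2 had none. In comparison, 3 of 4 cholinergic genes were open, with Ache (142 and 131), Slc18a3 (123 and 97) and Chat (102 and 78), and 2 of 8 catecholamine genes, Slc18a1 (147 and 135) and Pnmt (107 and 100).

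**Figure D5:**
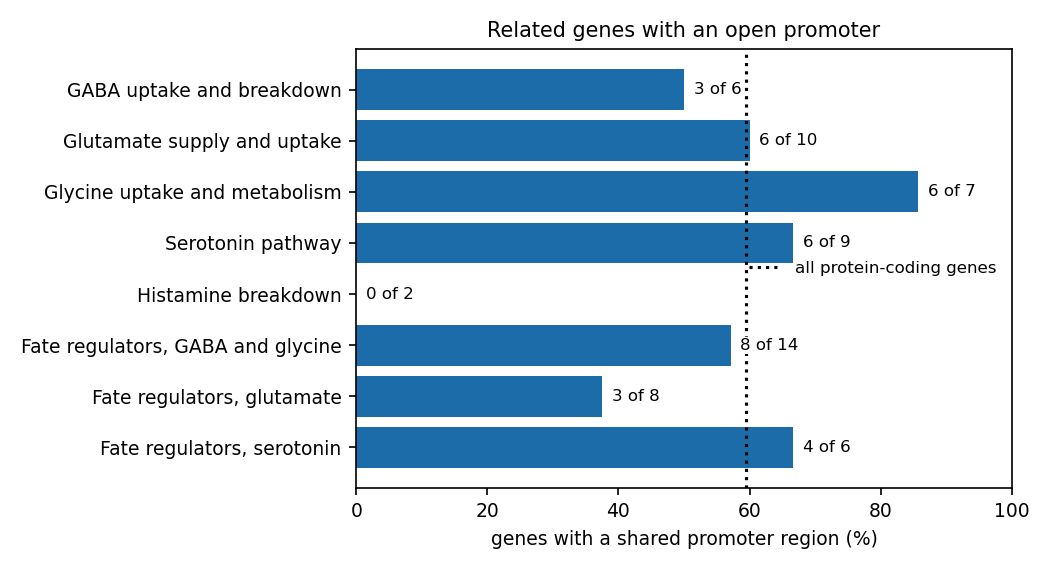
Bars give the percentage of genes with an open promoter in 8 lists of genes related to these transmitters, with the counts beside them, and the dotted line is the percentage over all protein-coding genes (59.5). The 8 lists shown range from 0 of 2 for histamine breakdown to 6 of 7 for glycine.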

How the data were processed

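DNase-seq of MN1 cells was read from the peak and hotspot lists deposited for 2 libraries of 1 group. Per the listing deposited with each library, both were derived from that library's filtered mm10 alignment and a further input, and they were not pooled. Aligner and caller: not given in the sources used here. Each peak carries a score deposited by the authors, from 1 to 150, and each hotspot the −log10 of a false discovery rate (q-value), also deposited by the authors. Read depth is not known, so no counting interval is given.

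Entries outside 21 main chromosomes were dropped, and duplicate peaks (15 and 26) entered once. Peaks of both replicates overlapping by at least 1 bp were merged. Promoters were 1 kb on either side of any GENCODE M21 TSS, and distal regions lay over 2.5 kb from any TSS. Positions are 1-based, from region centres to the start of the first-numbered transcript, on GRCm38, the assembly of mm10. A promoter score is the highest within the window in a replicate, and percentiles are among genes with a promoter peak. RefSeq promoters matched all 10 genes. Where the RefSeq stretch ran past the GENCODE start, it was cut there.

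All 10 genes are named. In related lists, any gene may be named as having a region or none, scores are given for the 3 with the highest lower score, and neighbours are named where a region lies within 1 kb of their TSS. Results of some genes are not reported here. The genes, lists and motifs were chosen with earlier results of these data known. The search for widely spaced RE1 half-sites and both mitochondrial cuts were added after the data were seen. In simulated lists, all of 2000 planted shared promoters were recovered among 21911 genes, and 0 of 1980 planted in 1 replicate were called. The planted pairs overlapped inside the window by design, no background peaks were added, and single-replicate genes near planted pairs were left out. This checks the counting code only and gives no error rate for the real lists. Alternatives were other windows, thresholds, overlaps and distances, hotspots, and each replicate alone. Calculations used Python 3.11.15, numpy 2.4.6 and matplotlib 3.10.9.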

Additional observations from a re-analysis of the deposited data

How the results depend on the processing

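The 5 open promoters were the same genes with either replicate alone (5 and 5), with a 2.5 kb window, with an overlap of 75 bp and with hotspots. Of all genes, 63.4% were open with the 2.5 kb window, 59.0% with the 75 bp overlap and 59.9% with hotspots. Gad1 was lost with a 500 bp window and with the stronger 50% of peaks, which left 4 genes. The share of all genes fell in these settings too, from 59.5% to 57.7% and 55.6%. At the most upstream start only, 3 genes were open, without Gad1 and Hdc, against 55.0% of all genes. Body regions were found in 6 genes with either replicate alone (6 and 6). The median of 4.5 distal regions became 1.5 with the stronger 50% of peaks, 7.5 within 100 kb, and 6 with either replicate alone (6 and 6). For the body and distal counts, values over all genes are given for the main setting only. Of the promoter scores, that of Slc17a7 moved from 74 to 130 with a 2.5 kb window and that of Tph1 from 87.5 to 40.5 at the most upstream start. The 16 regions at Gad2 became 14 or 10 without those sharing sequence with the mitochondrial genome, by 2 cuts that were both chosen after the data were seen. No paired analysis was possible because there was 1 group. Read depth, which sets how weak a site can be called, is not known: 26.4% of the peaks at these genes in replicate 1 and 19.5% in replicate 2 had no partner, against 31.3% and 23.3% of all peaks.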
